A study of Mus musculus with 6 samples.

Results

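The homeobox transcription factors outside the HOX clusters were examined in cultured vascular smooth muscle cells (VSMCs), which form the contractile layer of arteries and had been isolated here from mouse aorta. The set was chosen by gene symbol and named 47 factors, of which 44 were among the 27502 genes listed in every sample. Evx1, Otx2 and Barx2 had no row. The siEzh2 group was 3 samples in which short interfering RNA was directed against Ezh2, and the control group was 3 samples that went with this knockdown, all at 48 hours. The labels name neither the treatment of the control cells nor the siRNA sequences, nor the strain, sex and age of the mice. They also leave out whether replicates were separate cultures or mice, so p-values refer to the spread over these 6 samples and that spread may be technical. Values are read fragments scaled by exon length and library size (FPKM), which can be compared between genes because they are scaled by length.

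Homeobox genes encode proteins that bind DNA through a homeodomain, and they are best known for setting the position and identity of cells in the embryo. Many of them are held silent in cells that do not use them by Polycomb repressive complex 2 (PRC2), whose main enzyme, Ezh2, trimethylates histone H3 at lysine 27 (H3K27me3), often over promoters rich in CpG dinucleotides. In mesenchymal cells such as vascular smooth muscle a limited set stays on, including the paired-related factors Prrx1 and Prrx2 and the TALE factors of the MEIS and PBX families, which act as partners of HOX proteins.

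Promoter letters are shown for the homeobox genes that passed the test, since CpG-rich promoters are the kind of DNA that Polycomb complexes occupy. RefSeq windows of 250 bases before an annotated start (build GRCm38.p6) were found for 31 of the 44 listed factors, as 39 windows. For 36 of them a stretch of bases shortly after the start occurred in a GENCODE transcript of the gene. Of the 13 windows that belonged to called genes, 4 held no annotated exon base, and these are printed 5′ to 3′ with each CpG in capitals. The window of Dlx2 (chr2:71546755-71547004, minus strand) lies just before the gene, that of Tgif1 (chr17:70851735-70851984, minus strand) before a start within the gene, and Lhx6 has an outer window (chr2:36105409-36105658, minus strand) and an inner one (chr2:36104061-36104310, minus strand).
Dlx2: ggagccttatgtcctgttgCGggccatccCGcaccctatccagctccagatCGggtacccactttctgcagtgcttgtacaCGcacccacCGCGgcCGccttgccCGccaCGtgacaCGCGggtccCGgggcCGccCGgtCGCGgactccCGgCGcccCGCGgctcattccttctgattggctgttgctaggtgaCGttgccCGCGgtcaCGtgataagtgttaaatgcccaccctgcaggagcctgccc
Tgif1: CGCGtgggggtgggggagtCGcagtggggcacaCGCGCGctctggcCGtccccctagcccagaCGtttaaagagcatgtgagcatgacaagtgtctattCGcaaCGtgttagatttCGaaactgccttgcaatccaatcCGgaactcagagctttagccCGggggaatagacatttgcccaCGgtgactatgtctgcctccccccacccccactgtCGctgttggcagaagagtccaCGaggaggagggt
Lhx6 outer: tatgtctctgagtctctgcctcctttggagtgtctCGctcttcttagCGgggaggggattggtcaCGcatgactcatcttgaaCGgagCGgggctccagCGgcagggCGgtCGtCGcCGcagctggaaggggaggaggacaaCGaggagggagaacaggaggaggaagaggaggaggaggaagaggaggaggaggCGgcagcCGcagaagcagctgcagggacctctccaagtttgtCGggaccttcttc
Lhx6 inner: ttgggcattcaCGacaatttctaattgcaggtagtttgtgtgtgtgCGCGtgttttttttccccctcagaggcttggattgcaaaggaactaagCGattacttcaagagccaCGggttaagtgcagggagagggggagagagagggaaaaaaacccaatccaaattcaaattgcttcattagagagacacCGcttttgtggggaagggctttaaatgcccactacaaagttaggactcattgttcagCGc
The Dlx2 window held 24 CpG, the Tgif1 window 16, the outer Lhx6 window 14 and the inner Lhx6 window 7. Across all 32851 windows in the table the median was 6 CpG, with quartiles of 2 and 16.

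Taking the median window of each gene, the 31 homeobox genes had a median of 18 CpG and ranged from 4 (Prrx1 and Lhx9) to 40 (Barx1). The genes called higher had a median of 19.5 CpG (4 genes, 13 to 26), those called lower 14 (3 genes, 7 to 21) and those tested but not called 13 (10 genes, 4 to 27). The low genes had a median of 20 (9 genes, 11 to 33) and the near-silent genes 19 (5 genes, 4 to 40), with the classes defined in the next paragraph. The groups overlapped in CpG count. The letters TAATTA, a core that many homeodomains bind and which reads the same on both strands, were present in the windows of Prrx1 and Msx2, 5.13% of the factors' windows against 4.84% of all windows. No chromatin was measured in these samples, so these letters say nothing of where PRC2 lay.

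**Figure D1:**
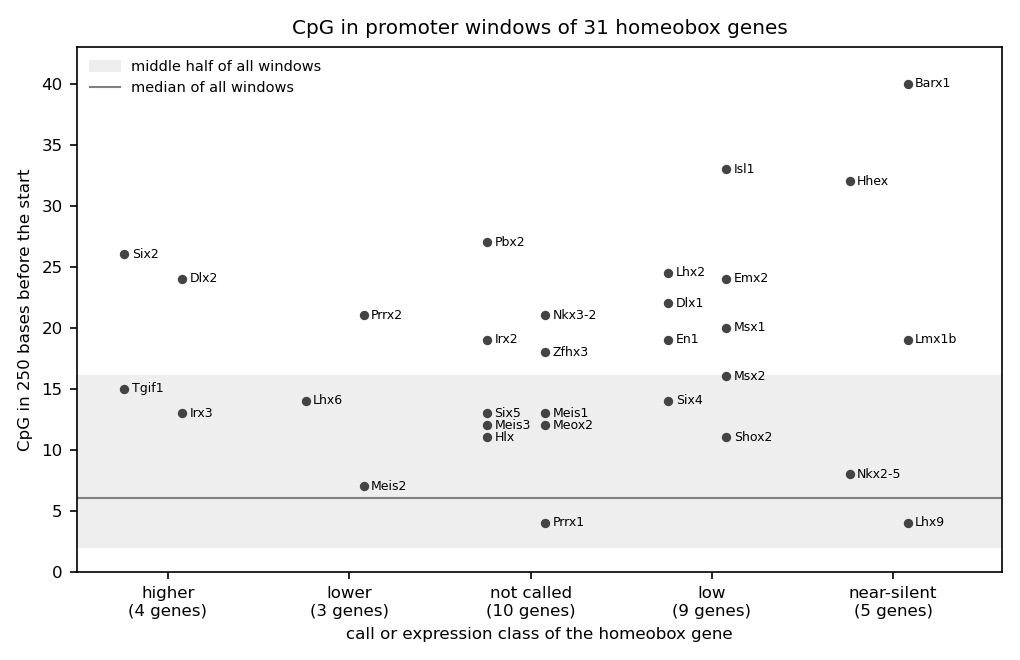
Number of CpG dinucleotides in the 250 bases before the start (vertical axis) for 31 homeobox genes, by call or expression class (horizontal axis); each point is a gene at the median of its windows, the grey band spans the quartiles of all windows (2 to 16) and the grey line their median of 6. Genes of every class lie inside and above the band, from Prrx1 and Lhx9 at 4 to Barx1 at 40.

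Targeting could be checked on Ezh2 itself, which had 1.2, 1.09 and 1.05 FPKM in siEzh2 samples and 3.41, 3.59 and 3.88 FPKM in control samples. The groups did not overlap, and the mean of 1.11 ± 0.0781 FPKM in siEzh2 samples was 3.26 times lower than the 3.63 ± 0.237 FPKM in control samples (SD, n = 3 each; adjusted p = 5.15e-05, limma with Benjamini-Hochberg adjustment over all tested genes). These values rest on 379 reads in the siEzh2 group and 1347 in the control group, so the knockdown was partial at the RNA level. Of the other core subunits of PRC2, Suz12 was higher (10.4 ± 0.457 FPKM in siEzh2 and 8.33 ± 0.748 FPKM in control samples, adjusted p = 0.0122, limma) and Eed, with 11.7 ± 1.26 FPKM in siEzh2 and 11.4 ± 0.709 FPKM in control samples, was not called (adjusted p = 0.792, limma). Ezh1, the paralogous enzyme, was higher with 4.92 ± 0.33 FPKM in siEzh2 and 4.07 ± 0.247 FPKM in control samples (adjusted p = 0.0208, limma), a call that was lost without siEzh2 sample 1 or 2 or control sample 2 or 3 (adjusted p = 0.0614 to 0.0655).

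Reads assigned to the listed genes numbered 16080005 to 17553744 in siEzh2 and 18248440 to 18753124 in control samples, as recovered from the steps of the FPKM values. Reads outside these genes are not included. Genes above 0 numbered 21408 to 21648 in siEzh2 and 20857 to 20987 in control samples. Smooth muscle identity was checked on 10 markers, whose summed level was 545 to 583 FPKM in siEzh2 and 722 to 751 FPKM in control samples. Almost all of it was Acta2, smooth muscle actin (537 ± 17.8 FPKM in siEzh2 and 699 ± 14.8 FPKM in control samples), and 6 of 7 tested markers were lower. Tagln, another contractile marker, chosen after its values were seen, had values near 0 in both groups (0.228 ± 0.0744 FPKM in siEzh2 and 0.253 ± 0.0865 FPKM in control samples). Of its exon bases 67.857% lie opposite Gm48529 and Pcsk7, where reads cannot be told apart if the counting did not use strand. Whether this lowered the Tagln values was not tested. Tagln was not the only scarce marker of the list. Means in siEzh2 and control samples were 1.12 and 1.83 FPKM for Myh11 and 1.04 and 1.14 FPKM for Cnn1. They were 0.431 and 0.752 FPKM for Des and 0.515 and 0.368 FPKM for Synpo2. No exon base of Myh11, Cnn1 or Synpo2 is shared with another annotated gene. Smtn (10.4 FPKM in siEzh2 and 13.4 FPKM in control samples) and Lmod1 stood higher, though far below Acta2.

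Markers of other cell types that an aortic culture could hold also differed between the groups, and their part in the homeobox results was not tested. For the counts of calls below, 24.1% of all tested genes were called higher and 22.7% lower. Summed macrophage markers (12 genes, highest in siEzh2 samples for Cd68 and in control samples for Lyz2) were 14.4 to 15.7 FPKM in siEzh2 and 18.2 to 21.3 FPKM in control samples, with 2 of 4 tested members higher (Cd68 and Cd14) and 2 lower (Lyz2, 2.35 times, and Csf1r, 3.24 times), and Ptprc, Adgre1, Itgam and Tyrobp under 0.1 FPKM in both groups. Not tested, C1qa (4 reads in siEzh2 and 18 in control samples) and C1qc (2 and 19 reads) had lower means in siEzh2 samples. C1qb (8 reads in siEzh2 and 5 in control samples) had a higher mean, and Fcer1g (8 and 9 reads) a nearly equal one. Summed endothelial markers (10 genes, highest in siEzh2 samples for Kdr and in control samples for Emcn) were 5.11 to 5.73 FPKM in siEzh2 and 4.28 to 4.51 FPKM in control samples, with Kdr higher and Emcn lower of 2 tested. Vwf (0.932 ± 0.109 FPKM in siEzh2 and 0.417 ± 0.0524 FPKM in control samples) and Tek (0.857 ± 0.0897 FPKM in siEzh2 and 0.332 ± 0.0815 FPKM in control samples) were below the filter and not tested, with Tie1 and Sox17 under 0.1 FPKM. Other markers below the filter went both ways. Pecam1 (0.0789 FPKM in siEzh2 and 0.17 FPKM in control samples) and Cdh5 (0.196 and 0.223 FPKM) had lower means in siEzh2 samples. Erg (0.271 FPKM in siEzh2 and 0.182 FPKM in control samples) and Egfl7 (0.208 and 0.151 FPKM) had higher ones. Fibroblast and adventitial markers (10 genes, led by Col1a1) summed to 706 to 743 FPKM in siEzh2 and 809 to 857 FPKM in control samples, with 1 of 9 tested members higher and 4 lower. Adipocyte markers (10 genes, led by Plin4) summed to 51.3 to 52.8 FPKM in siEzh2 and 68.7 to 71.0 FPKM in control samples, with 5 of 8 tested members lower.

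The comparison of siEzh2 with control samples asked which of these factors differed after Ezh2 knockdown, and the factors were first divided by level. Of the 44 listed factors, 20 (45.5%) were expressed at a mean of 1 FPKM or more in at least 1 group, 12 (27.3%) were low (0.1 FPKM or more in at least 1 group) and 12 (27.3%) were near-silent (under 0.1 FPKM in both groups). All listed genes divided into 43.2% expressed, 24.7% low and 32.1% near-silent. The factors are all protein-coding, and protein-coding genes divided into 61.1% expressed, 17.2% low and 21.7% near-silent. Against these the set held a smaller share of expressed genes and larger shares of low and near-silent ones. Among 91 listed homeobox genes outside the set, 22.0% were expressed and 58.2% near-silent. Only the 20 expressed factors entered the main test, limma on log2(FPKM + 1), a scale that understates the change of low genes. In bulk RNA, a change in the number of cells that use a gene and a change in RNA per cell cannot be told apart.

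Among the 20 tested factors 5 were higher in siEzh2 samples (Tgif1, Irx1, Irx3, Six2 and Dlx2), 3 were lower (Prrx2, Lhx6 and Meis2) and 12 were not called. Over all 11869 tested genes 46.9% were called, 24.1% higher and 22.7% lower, so the 40.0% of homeobox factors called was no larger a share than the background. Their median log2 difference was −0.02, against 0.01 over all tested genes. The siEzh2 and control samples did not overlap in the 8 called factors and overlapped in the 12 not called. The share without overlap was thus 40.0% of the 20 tested factors, smaller than the 58.1% of all tested genes. Limma-voom on recovered reads, chosen after the data were seen, reached 28 factors and called 7 higher and 5 lower, where 46.4% of all genes it tested were called. With a filter and pseudocount of 0.1, 32 factors were tested and 3 were higher and 3 lower, where 25% of all genes tested were called. Irx3 passed the filter only through its siEzh2 mean and Dlx5 only through its control mean, so neither counts as support for a shift of the set. Without siEzh2 sample 1, or without control sample 2, 3 factors were called higher in place of 5.

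**Figure D2:**
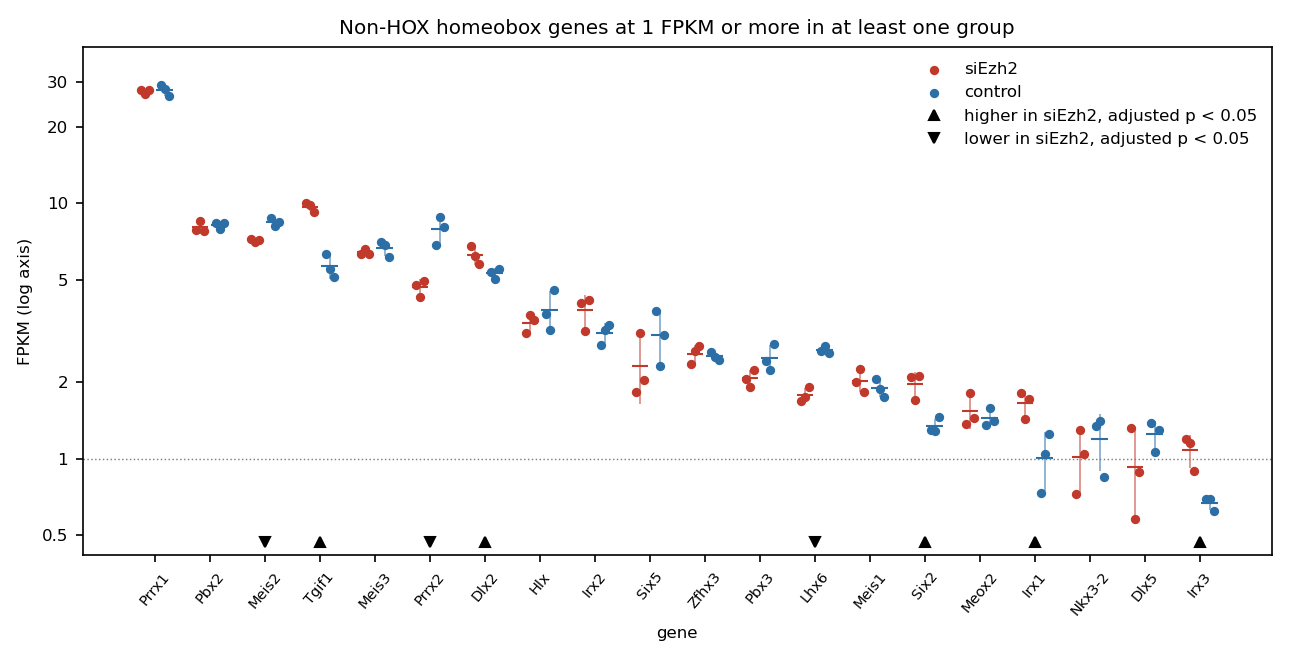
FPKM on a log axis for the 20 expressed homeobox factors, ordered by their mean over all samples; red points are the 3 siEzh2 samples and blue points the 3 control samples, horizontal bars are means, vertical lines are 1 SD, and triangles mark called genes. Prrx1 stands above all others at about 28 FPKM in both groups, and the groups separate for Tgif1, Prrx2, Lhx6, Six2 and Irx3 among others.

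Among the tested factors, the largest rise on the log2(FPKM + 1) scale was that of a TALE factor. Tgif1, a repressor that binds SMAD proteins and limits TGF-beta signalling (ENSMUSG00000047407, chromosome 17 from 70844205 to 70853546, minus strand, mm10), had 10, 9.88 and 9.26 FPKM in siEzh2 samples and 6.34, 5.51 and 5.14 FPKM in control samples. Every siEzh2 sample was above every control sample, and the mean was 1.72 times higher, 9.72 ± 0.398 FPKM in siEzh2 against 5.66 ± 0.611 FPKM in control samples (SD, n = 3 each). The log2 difference was 0.69 (SE 0.0717, adjusted p = 0.000706, limma), on 2789 reads in siEzh2 and 1770 in control samples. Tgif1 kept its call under all 13 alternatives run, with a log2 difference of 0.63 to 0.78.

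The MEIS proteins bind DNA together with PBX and HOX proteins and raise their specificity. Meis2 (ENSMUSG00000027210, chromosome 2 from 115863064 to 116065839, minus strand) had 7.25, 7.09 and 7.22 FPKM in siEzh2 samples and 8.77, 8.14 and 8.46 FPKM in control samples. The groups did not overlap, although the step was small: 7.19 ± 0.0861 FPKM in siEzh2 and 8.46 ± 0.317 FPKM in control samples, 1.18 times lower (SD, n = 3 each). Its log2 difference was −0.21 (SE 0.0379, adjusted p = 0.00581, limma) and stayed between −0.23 and −0.18 with the call kept under the 13 alternatives. Meis1 and Meis3 were not called. Meis1 had 2.0, 2.24 and 1.83 FPKM in siEzh2 and 2.05, 1.87 and 1.75 FPKM in control samples, and Meis3 had 6.35, 6.60 and 6.34 FPKM in siEzh2 and 7.04, 6.87 and 6.14 FPKM in control samples. The 95% interval of the log2 difference was −0.09 to 0.22 for Meis1 and −0.18 to 0.08 for Meis3. Of the exon bases of Meis1, 9.77% are shared with a gene on its own strand and 8.507% with one on the opposite strand.

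The ratio of Meis2 to Meis1 FPKM was 3.62, 3.17 and 3.94 in siEzh2 samples and 4.28, 4.35 and 4.82 in control samples. The ratios did not overlap between the groups, and Meis2 remained the more abundant transcript in each sample. This pair, and the pairs of Prrx and Irx genes below, were chosen after their values were seen and carry no test.

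Of the PBX factors, which join MEIS and HOX proteins on DNA, neither was called. Pbx2 had 7.84, 8.57 and 7.77 FPKM in siEzh2 samples and 8.38, 7.93 and 8.40 FPKM in control samples, with an interval of −0.15 to 0.09 for the log2 difference; 6.236% of its exon bases are shared with Gpsm3. Pbx3 had 2.06, 1.90 and 2.23 FPKM in siEzh2 and 2.41, 2.22 and 2.81 FPKM in control samples. For Pbx3 the lowest control sample lay just below the highest siEzh2 sample, and the log2 difference of −0.18 missed the threshold (SE 0.0734, adjusted p = 0.084, limma). It passed with limma-voom on recovered reads (−0.26, adjusted p = 0.0372), an alternative chosen after the data were seen, and with the replicate number as a block (adjusted p = 0.028, limma). Same-numbered samples deviated together only weakly, although each correlated best with its own number, so whether the numbers mark pairs is not known.

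Iroquois factors pattern the heart, limbs and nervous system, and the mouse genes lie in a cluster on chromosome 13 with Irx1 and Irx2 and a cluster on chromosome 8 with Irx3 and Irx5. Of the 3 tested members 2 were called, both higher, where 24.1% of all tested genes were, and 1 of the 2, Irx3, passed the filter only through its siEzh2 mean. Irx1 (ENSMUSG00000060969, chromosome 13 from 71957921 to 71963723, minus strand) had 1.80, 1.43 and 1.71 FPKM in siEzh2 samples and 0.731, 1.04 and 1.25 FPKM in control samples. The groups did not overlap, and the mean of 1.65 ± 0.192 FPKM in siEzh2 was 1.64 times that of 1.01 ± 0.263 FPKM in control samples (SD, n = 3 each; log2 difference 0.41, SE 0.106, adjusted p = 0.0215, limma). The call was lost without siEzh2 sample 1 (adjusted p = 0.0657), siEzh2 sample 3 (0.063) or control sample 2 (0.0513), with no filter on low values (0.0597) and with a filter and pseudocount of 0.1 (0.07).

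Irx3 (ENSMUSG00000031734, chromosome 8 from 91798525 to 91802067, minus strand) had 1.19, 1.15 and 0.894 FPKM in siEzh2 samples and 0.694, 0.694 and 0.624 FPKM in control samples. Each siEzh2 sample was higher than all control samples, and the means were 1.08 ± 0.162 FPKM in siEzh2 and 0.671 ± 0.0404 FPKM in control samples (SD, n = 3 each), 1.61 times higher. The log2 difference was 0.31 (SE 0.063, adjusted p = 0.00832, limma), on 152 reads in siEzh2 and 103 in control samples, and the call held under the 13 alternatives. Of its exon bases 4.49% lie opposite Irx3os, which was under 0.1 FPKM in both groups.

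The neighbours of these genes differed less clearly. Irx2, 665 kb from Irx1, had 4.07, 3.16 and 4.2 FPKM in siEzh2 samples and 2.80, 3.20 and 3.35 FPKM in control samples. In siEzh2 sample 2 it lay within the control range, and the log2 difference of 0.22 (SE 0.0986) was not called with all samples (adjusted p = 0.114, limma) but was called without that sample (0.32, adjusted p = 0.0183). Irx5, 556 kb from Irx3, was a low gene with 22 reads over the siEzh2 group and 26 over the control group. The ratio of Irx1 to Irx2 FPKM was 0.443, 0.454 and 0.407 in siEzh2 samples and 0.261, 0.324 and 0.375 in control samples, so Irx2 was the more abundant of the pair in each sample and by less in siEzh2 samples.

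Prrx1 and Prrx2 are paralogous paired-related factors of embryonic mesenchyme, where they act in limb, skull and vessel formation in the mouse. Prrx1 was the most abundant factor of the set, above 84.6% of all expressed genes. It had 27.8, 26.8 and 27.8 FPKM in siEzh2 samples and 29.2, 28.0 and 26.4 FPKM in control samples, and was not called (log2 difference −0.02, 95% interval −0.13 to 0.09, adjusted p = 0.753, limma). It had 15507 reads in the siEzh2 group and 17140 in the control group.

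Prrx2 (ENSMUSG00000039476, chromosome 2 from 30834972 to 30881251, plus strand) was lower than in control samples, the largest fall among the tested homeobox factors. It had 4.79, 4.30 and 4.98 FPKM in siEzh2 samples and 6.87, 8.86 and 8.05 FPKM in control samples. The groups were well apart, with 4.69 ± 0.353 FPKM in siEzh2 and 7.92 ± 1.0 FPKM in control samples, 1.69 times lower (SD, n = 3 each). On the log2 scale the difference was −0.65 (SE 0.0915, adjusted p = 0.00218, limma), on 469 reads in siEzh2 and 865 in control samples, and lay between −0.75 and −0.57 with the call kept in the 13 alternatives. The ratio of Prrx2 to Prrx1 was 0.172, 0.160 and 0.179 in siEzh2 samples and 0.235, 0.317 and 0.305 in control samples, with no overlap.

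The remaining paired-class factors were scarce. Shox2, which acts in limb growth and the sinoatrial node, was a low gene with 0.113, 0.241 and 0.0694 FPKM in siEzh2 samples and 0.364, 0.209 and 0.325 FPKM in control samples. Its groups overlapped through siEzh2 sample 2 and control sample 2. It was called lower by limma-voom on 24 recovered reads in siEzh2 and 55 in control samples (log2 difference −1.16, adjusted p = 0.0309) and was not called with a filter and pseudocount of 0.1 (−0.77, adjusted p = 0.14, limma). Of its exon bases 4.621% lie opposite Rsrc1, which was itself lower (2.10 ± 0.138 FPKM in siEzh2 and 2.75 ± 0.126 FPKM in control samples). Alx4, Alx1, Pitx1 and Otx1 were near-silent.

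**Figure D3:**
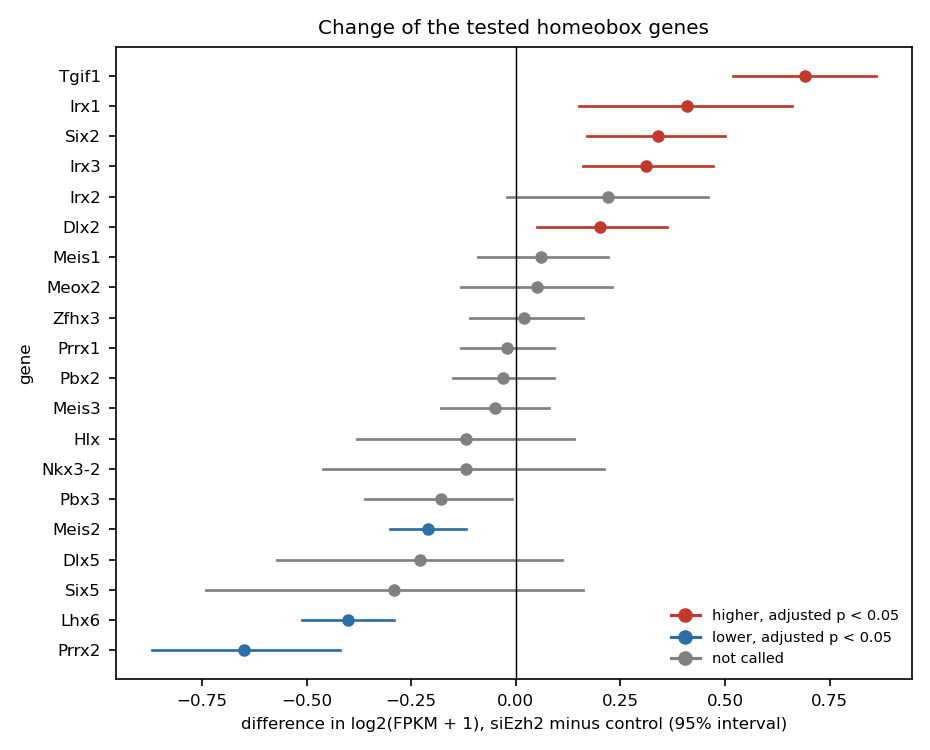
Difference in log2(FPKM + 1), siEzh2 minus control (horizontal axis), for the 20 tested homeobox factors (vertical axis), with the 95% interval of the limma fit; red marks genes called higher, blue genes called lower and grey genes not called. Tgif1 lies at 0.69 and Prrx2 at −0.65, and the other genes lie between them.

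Factors of the sine oculis family act with EYA coactivators in progenitors of kidney, muscle and sensory organs. Six2 (ENSMUSG00000024134, chromosome 17 from 85684277 to 85688274, minus strand), which keeps kidney progenitors in their state, had 2.08, 1.69 and 2.11 FPKM in siEzh2 samples and 1.29, 1.28 and 1.45 FPKM in control samples. All siEzh2 samples were above all control samples. The mean was 1.46 times higher, 1.96 ± 0.235 FPKM in siEzh2 against 1.34 ± 0.0935 FPKM in control samples (SD, n = 3 each; log2 difference 0.34, SE 0.0672, adjusted p = 0.00803, limma), and the call held in the 13 alternatives. Six5 varied widely, with 1.82, 3.10 and 2.03 FPKM in siEzh2 and 3.79, 2.30 and 3.04 FPKM in control samples, and its interval of −0.74 to 0.16 leaves room for a fall of the size seen in Prrx2.

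Six4 was a low gene with 0.790, 0.613 and 0.746 FPKM in siEzh2 samples and 0.615, 0.540 and 0.476 FPKM in control samples. The groups met at siEzh2 sample 2 and control sample 1. On 396 reads in siEzh2 and 328 in control samples limma-voom called it higher (log2 difference 0.39, adjusted p = 0.026), and the fit with a filter and pseudocount of 0.1 did not (0.34, adjusted p = 0.108, limma).

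LIM-homeodomain factors bind LDB adaptors through their LIM domains, and of the 5 in the set only Lhx6 was expressed. Lhx6 (ENSMUSG00000026890, chromosome 2 from 36081953 to 36105408, minus strand), known from cortical interneurons and jaw mesenchyme, had 1.68, 1.75 and 1.91 FPKM in siEzh2 samples and 2.65, 2.76 and 2.59 FPKM in control samples. The spread within each group was small against the gap between them, 1.78 ± 0.118 FPKM in siEzh2 and 2.67 ± 0.0865 FPKM in control samples, 1.5 times lower (SD, n = 3 each). The log2 difference was −0.40 (SE 0.0439, adjusted p = 0.000855, limma), on 438 reads in siEzh2 and 713 in control samples, with a range of −0.58 to −0.37 and no lost call in the 13 alternatives. Isl1 and Lhx2 were low, Isl1 with 32 reads over the siEzh2 group and 27 over the control group and Lhx2 with 26 over the siEzh2 group and 18 over the control group, and Lhx9 and Lmx1b were near-silent.

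The Dlx genes lie in convergent pairs and act in the forebrain, branchial arches and skeleton. Dlx2 (ENSMUSG00000023391, chromosome 2 from 71543408 to 71546754, minus strand) had 6.84, 6.24 and 5.78 FPKM in siEzh2 samples and 5.37, 5.04 and 5.53 FPKM in control samples. The groups did not overlap, but the lowest siEzh2 sample was close to the highest control sample, and the means of 6.28 ± 0.532 FPKM in siEzh2 and 5.31 ± 0.25 FPKM in control samples differed 1.18 times (SD, n = 3 each; log2 difference 0.20, SE 0.0628, adjusted p = 0.0377, limma). This call was lost in 9 of the 13 alternatives (adjusted p = 0.0568 to 0.109, limma), among them leaving out siEzh2 sample 1 or 2 or any 1 of the control samples (0.0589 to 0.109).

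Dlx1 lies 9.43 kb from Dlx2 on the opposite strand and was a low gene. It had 0.588, 0.601 and 0.628 FPKM in siEzh2 samples and 0.528, 0.326 and 0.399 FPKM in control samples, so the siEzh2 samples were closely grouped and all above the control samples. The means were 0.606 ± 0.0207 FPKM in siEzh2 and 0.418 ± 0.102 FPKM in control samples (SD, n = 3 each), 1.45 times higher. Limma-voom called it on 167 reads in siEzh2 and 125 in control samples (log2 difference 0.56, adjusted p = 0.0368), and the fit with a filter and pseudocount of 0.1 did not (0.47, adjusted p = 0.0843, limma). Of its exon bases 6.208% lie opposite Dlx1as, which had 0.788 ± 0.167 FPKM in siEzh2 and 0.520 ± 0.173 FPKM in control samples, and reads of the 2 genes cannot be told apart there if the counting did not use strand.

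Dlx5 and Dlx6, 9.24 kb apart on chromosome 6 and known from bone and jaw, had no call. Dlx5 had 1.32, 0.578 and 0.889 FPKM in siEzh2 samples and 1.38, 1.06 and 1.29 FPKM in control samples. The siEzh2 samples spanned more than the control samples, and without siEzh2 sample 1 Dlx5 was called lower (log2 difference −0.37, adjusted p = 0.0362, limma) where with all samples it was not (−0.23, adjusted p = 0.221). Dlx6 had 22 reads over the siEzh2 group and 23 over the control group. Dlx3 and Dlx4, 15.2 kb apart on chromosome 11, are described with the scarcest genes.

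Msx1 and Msx2, targets of BMP signalling in the skull, limbs and teeth, stood just under the filter. Msx2 had 1.33, 1.02 and 0.631 FPKM in siEzh2 samples and 1.09, 0.829 and 1.05 FPKM in control samples, with nearly equal means of 0.994 ± 0.349 FPKM in siEzh2 and 0.988 ± 0.139 FPKM in control samples (SD, n = 3 each). Msx1 had 0.803, 0.735 and 0.557 FPKM in siEzh2 and 1.11, 0.774 and 1.08 FPKM in control samples. For Msx1 only siEzh2 sample 1 reached into the control range, and limma-voom on 110 reads in siEzh2 and 170 in control samples gave a log2 difference of −0.50 that was not called (adjusted p = 0.0819).

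The other expressed factors of the set were not called. Hlx, a factor of visceral mesenchyme, had 3.11, 3.65 and 3.48 FPKM in siEzh2 samples and 3.68, 3.20 and 4.59 FPKM in control samples (interval −0.38 to 0.14). Meox2, first described as a growth-arrest gene in rat vascular smooth muscle, had 1.37, 1.81 and 1.44 FPKM in siEzh2 and 1.35, 1.58 and 1.41 FPKM in control samples (interval −0.13 to 0.23). Nkx3-2, a skeletal factor, had 0.724, 1.29 and 1.04 FPKM in siEzh2 and 1.34, 1.40 and 0.846 FPKM in control samples (interval −0.46 to 0.21). For all 3 the groups overlapped, and the intervals bound how large a log2 difference these samples allow. Zfhx3, a large protein with zinc fingers and several homeodomains, had 2.34, 2.63 and 2.77 FPKM in siEzh2 and 2.61, 2.51 and 2.43 FPKM in control samples (interval −0.11 to 0.16).

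Among the 12 low factors, which the main test did not reach, every siEzh2 sample was above every control sample for Dlx1, Emx2 and Dlx3, and no factor had all siEzh2 samples below. Of all 6804 low genes 14.4% were above and 7.17% below in this sense, and of the protein-coding low genes 19.1% and 12.3%. The mean was higher in siEzh2 samples for 8 of the 12 (66.7%), against 59.7% of all low genes. Emx2, a factor of cortex and urogenital tract, had 0.393, 0.360 and 0.306 FPKM in siEzh2 samples and 0.237, 0.160 and 0.287 FPKM in control samples. It was not called on 54 reads in siEzh2 and 38 in control samples by limma-voom (log2 difference 0.64, adjusted p = 0.147), and 8.794% of its exon bases lie opposite Emx2os. En1, a factor of the midbrain and limb ectoderm, had 0.308, 0.260 and 0.525 FPKM in siEzh2 and 0.438, 0.629 and 0.431 FPKM in control samples, which overlapped. Dlx3 had 5, 11 and 4 reads in siEzh2 and 2, 4 and 2 reads in control samples, so that its lowest siEzh2 and highest control samples held 4 reads each.

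The 12 near-silent factors had means over all samples between 0.00641 and 0.0647 FPKM, which is 0 to 12 reads in a sample. At these depths the limit that a count of 0 allows is 3 reads, or 0.1709 to 0.1866 counts scaled to library size (CPM) in siEzh2 and 0.16 to 0.1644 CPM in control samples, which covers counting error only. Lhx9, a factor of gonad and limb, had 8, 10 and 6 reads in siEzh2 samples and 4, 3 and 6 reads in control samples. It was the single near-silent factor with siEzh2 samples above all control samples by FPKM. That held for 4.64% of 8829 near-silent genes and 6.26% of the protein-coding ones. Dlx4 had 15 reads over the siEzh2 group and 7 over the control group, and Meox1 had 10 over the siEzh2 group and 4 over the control group, with 0 in siEzh2 sample 1. The mean was higher in siEzh2 samples for 8 of these 12 factors (66.7%), against 60.7% of all near-silent genes.

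Alx4, a factor of skull and limb, was the single near-silent factor with siEzh2 samples below all control samples, and is named with Barx1 after their values were seen. Of near-silent genes 1.3% were below in this sense and 5.95% apart in either direction, and of the protein-coding ones 1.99% were below. Alx4 had 0, 0 and 0 reads in siEzh2 samples and 7, 2 and 12 reads in control samples. Its 0.378 CPM over the control group was 6.43 times a floor of 3 reads over the siEzh2 group (0.0588 CPM). This ratio takes the 21 control reads as exact, so it is not a lower bound of the difference. Without control sample 3, which held 12 of the 21 control reads, the ratio was 4.14. The fit with no filter on low values did not call Alx4 (adjusted p = 0.211, limma). Barx1 also had no read in siEzh2 samples but only 1, 0 and 3 in control samples, too few to show a difference. Nkx2-5, Lmx1b, En2, Pitx1, Hhex, Otx1 and Alx1 had 10 reads or fewer over either group.

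**Figure D4:**
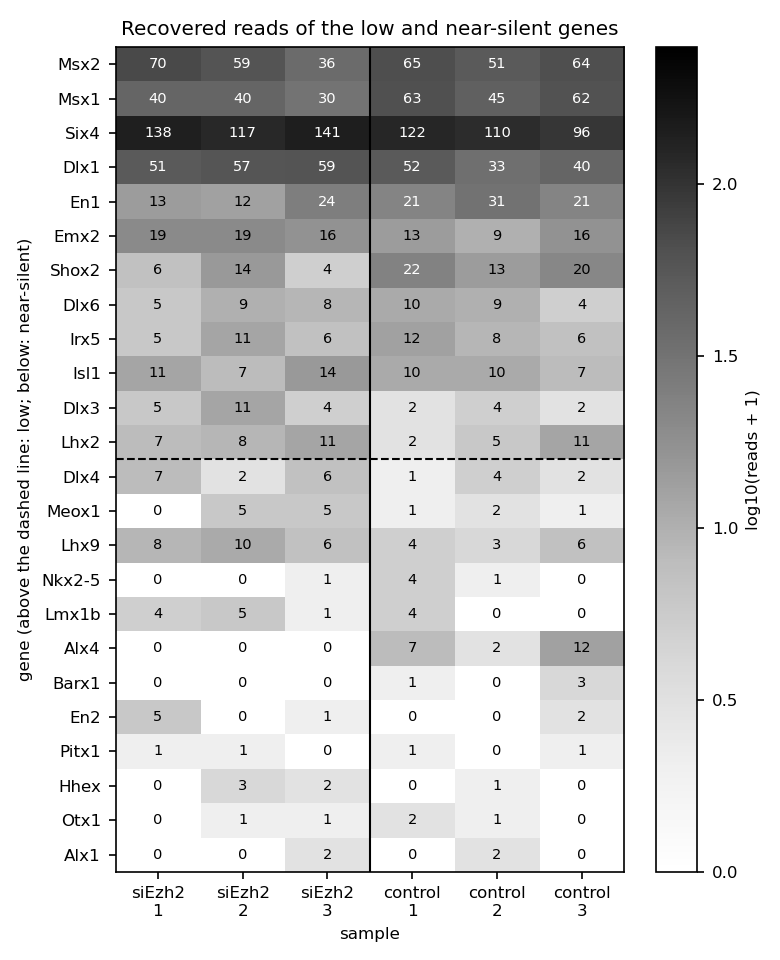
Reads recovered from FPKM in each of the 6 samples (columns, siEzh2 left of the line and control right of it) for the 12 low and 12 near-silent homeobox factors (rows, split by the dashed line); darker cells hold more reads on a log scale. Counts run from 141 for Six4 to 0, and Alx4 holds 0, 0 and 0 reads in siEzh2 and 7, 2 and 12 reads in control samples.

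Outside the set, 116 further homeobox genes were named, 91 had a row and 20 were tested, of which 2 were higher, 7 lower and 11 not called. The share called, 45.0%, was close to the 46.9% of all tested genes, and the median log2 difference was −0.07. Without siEzh2 sample 2, control sample 1 or control sample 2, 3 were called lower, and without control sample 3, 4 were. Zhx3, a repressor with zinc fingers and homeodomains, fell by 0.41 on the log2 scale (4.55 ± 0.188 FPKM in siEzh2 and 6.38 ± 0.124 FPKM in control samples, SD, n = 3 each; adjusted p = 0.000509, limma), and its relative Zhx2 fell by 0.28 (4.04 ± 0.271 FPKM in siEzh2 and 5.11 ± 0.199 FPKM in control samples). Zeb2 and Zeb1, repressors of epithelial genes, went opposite ways: Zeb2 rose by 0.26 (9.19 ± 0.167 FPKM in siEzh2 and 7.52 ± 0.0711 FPKM in control samples), while Zeb1 fell by 0.13 (15.5 ± 0.357 FPKM in siEzh2 and 17.0 ± 0.0837 FPKM in control samples). The Zeb1 call was lost without siEzh2 sample 2 or any 1 of the control samples (adjusted p = 0.051 to 0.063, limma). Cux1, a cut-class factor, rose by 0.29 (4.44 ± 0.226 FPKM in siEzh2 and 3.44 ± 0.113 FPKM in control samples), and Pknox2, a relative of the MEIS factors, fell by 0.27 (2.03 ± 0.16 FPKM in siEzh2 and 2.65 ± 0.19 FPKM in control samples).

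Of the other homeobox genes outside the filter, 18 were low and 53 near-silent. Among the low genes 2 had all siEzh2 samples above the control samples and 2 below, 11.1% each. Of all low genes 14.4% were above and 7.17% below, and of the protein-coding ones 19.1% and 12.3%. Among the near-silent genes 7 (13.2%) were above and 1 (1.89%) below. Of all near-silent genes 4.64% were above and 1.3% below, and of the protein-coding ones 6.26% and 1.99%. The 7 rested on 1 to 5 reads in each siEzh2 sample. For Pou3f1, Uncx and Pou2f2 the lowest siEzh2 and highest control samples held equal reads, so these were above by FPKM only. Pou4f3, a factor of inner ear hair cells named after its values were seen, was a low gene with 7, 21 and 14 reads in siEzh2 samples and 0, 0 and 0 reads in control samples. Its 0.823 CPM over the siEzh2 group was 15.2 times a floor of 3 reads over the control group (0.054 CPM). This ratio takes the siEzh2 reads as exact, so it is not a lower bound.

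Known protein partners of these factors were listed as well, 27 genes of which 21 were tested. Of these 6 were higher, 8 lower and 7 not called, with a median log2 difference of 0.02. The share called was 66.7%, where 46.9% of all tested genes were, and no test of that gap was made. All 7 tested partners of LIM-homeodomain factors were called, 2 higher and 5 lower. Lmo2, a LIM-only protein that competes for the same adaptor, fell by 0.64 on the log2 scale (1.5 ± 0.0683 FPKM in siEzh2 and 2.91 ± 0.117 FPKM in control samples, SD, n = 3 each; adjusted p = 0.000124, limma), 1.93 times lower. Ldb1, the adaptor itself, rose by 0.44 (26.4 ± 0.708 FPKM in siEzh2 and 19.3 ± 0.369 FPKM in control samples). Ssbp4, of the family that stabilises LDB proteins, fell by 0.50 (16.1 ± 0.77 FPKM in siEzh2 and 23.2 ± 0.195 FPKM in control samples), and Rlim, the ubiquitin ligase that acts on these cofactors, rose by 0.32 (11.7 ± 0.149 FPKM in siEzh2 and 9.17 ± 0.219 FPKM in control samples).

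Calls among partners of the other classes are to be read against the 24.1% of all tested genes called higher and the 22.7% called lower. Eya2, a coactivator that sine oculis factors bind, fell by 0.61 on the log2 scale and was 1.67 times lower (3.46 ± 0.248 FPKM in siEzh2 and 5.80 ± 0.449 FPKM in control samples, SD, n = 3 each; adjusted p = 0.000739, limma), the 1 call among 3 tested genes of that partner group. Of the 5 Groucho corepressors (TLE proteins), which many homeodomain proteins recruit, 1 was higher and 2 were lower. Of the 6 corepressors that TGIF proteins bind, 3 were higher and none was lower, a share called of 50% against the 46.9% of all tested genes.

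**Figure D5:**
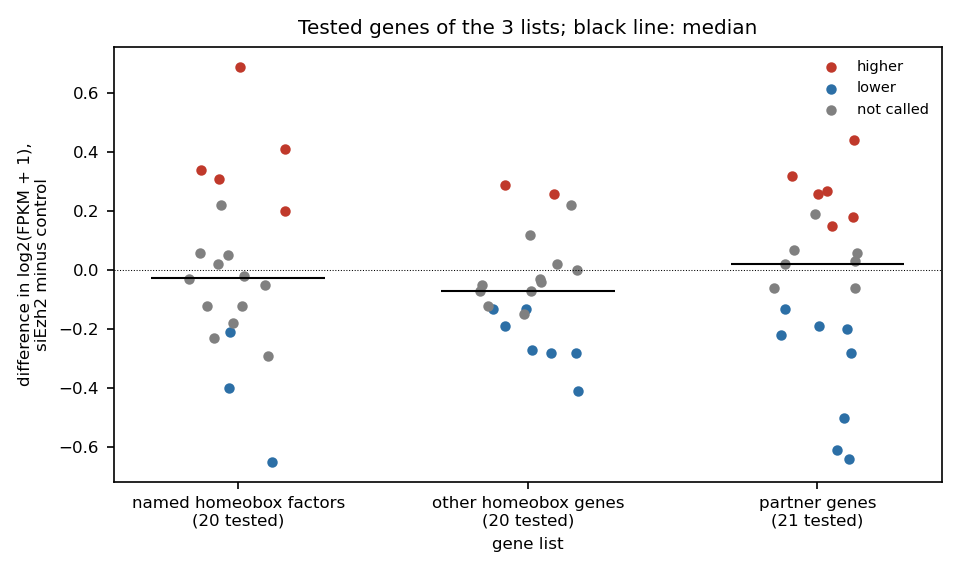
Difference in log2(FPKM + 1), siEzh2 minus control (vertical axis), of the tested genes of the named homeobox factors (20), the other homeobox genes (20) and the partner genes (21); red points were called higher, blue points lower and grey points not called, and black lines are medians (−0.02, −0.07 and 0.02). Calls in both directions occur in each list.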

How the data were processed

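RNA of 3 siEzh2 and 3 control samples was measured from TruSeq Stranded mRNA libraries, per the labels' protocols. The authors deposited 1 table of FPKM values per sample, a unit named in the file headers. Trimmomatic, HISAT2, HTSeq, Cufflinks and mm10 stand in the submitters' processing notes, without versions. The sources used here do not say whether counting used strand, so overlapping genes are uncertain.

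limma 3.58.1 (R 4.3.3) was fitted to log2(FPKM + 1) as siEzh2 minus control, with neither trend nor robust settings nor covariates, over the 11869 genes whose mean reached 1 FPKM in either group. Calls were genes with a p-value under 0.05 after Benjamini-Hochberg adjustment over all of them. SD and ratios are of FPKM. Python 3.11.15, pandas 2.3.3, numpy 2.4.6 and matplotlib 3.10.9 did the rest. GENCODE M21 held 27434 of the 27502 IDs and gave coordinates and exon lengths.

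Reads were recovered from the equal steps that FPKM times exon length shows; 98.43% to 98.52% of those below 1000 reads were whole numbers to within 0.02. Chi-square per degree of freedom between samples was 2.14 to 3.29 within groups and 27.9 to 30.0 between them, so no sample was a copy.

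Text names all 20 tested factors, the 8 highest low and 3 highest near-silent ones, the PRC2 core, the 6 other homeobox and 5 partner genes of smallest p and the top marker of each list reported; 1 marker list is not reported here. Other genes were chosen after their values were seen. The members and lists were chosen with earlier results of these data known. Alternatives were a pseudocount of 0.1, no filter, a filter and pseudocount of 0.1, quantile normalization, trend and robust on, the replicate number as a block, leaving out each sample and, chosen after the data were seen, limma-voom on genes with at least 10 recovered reads in at least 3 samples.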

Additional observations from a re-analysis of the deposited data

How the results depend on the processing

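Tgif1, Lhx6, Prrx2, Meis2, Six2 and Irx3 kept their direction and call in the 13 alternatives run, while Dlx2 and Irx1 did not. Factors called higher numbered 5 of 20 tested in the reported fit, 3 of 44 with no filter and 3 of 32 with a filter and pseudocount of 0.1. They numbered 7 of 28 with limma-voom and 3 to 5 when a sample was left out. Factors called lower numbered 3 of 20, against 5 of 28 with limma-voom, and 3 to 4 when a sample was left out. Of the other homeobox genes 2 of 20 tested were higher, against 5 of 91 with no filter and 4 of 38 with the filter of 0.1. Lower were 7, against 3 with the replicate block and 3 to 6 when a sample was left out. Because the tested sets differ, these counts cannot be compared directly. Of all genes tested 46.9% were called in the reported fit, 46.4% with limma-voom and 25% with the filter of 0.1. With no filter 2766 of 27502 genes were higher and 2383 lower. The counts of partner genes (6 and 8) and of all genes (2866 and 2695) stayed within 1.5 times. Signs turned only for differences near 0 that were not called in any of these fits: leaving out a sample gave −0.06 to 0.01 for Prrx1 (0.01 without control sample 1), −0.01 to 0.07 for Zfhx3 (−0.01 without siEzh2 sample 3, and −0.01 with quantile normalization), −0.03 to 0.10 for Meox2 (−0.03 without siEzh2 sample 2) and −0.05 to 0.08 for Eed (−0.05 without siEzh2 sample 1, −0.01 without control sample 1). The cause of these changes was not tested. Same-numbered samples deviated together only weakly (r of 0.0243, 0.0695 and 0.0405 across genes), so the numbers were not taken as pairs, although each sample correlated best with its own number. With the replicate block 2564 genes were higher and 2385 lower, and the homeobox factors had 4 calls in each direction, Dlx2 being lost and Pbx3 gained. The edgeR fit and the voom fit with TMM factors were not run, because the deposited values are FPKM. Depth limits the low and near-silent factors, where a few reads decide the value.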
